A study of Mus musculus with 3 samples.

Results

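Accessible chromatin of tdTomato+ forelimb cells was compared between embryonic day 14.5 (E14.5) and E16.5, over 57608 autosomal regions that carried a single peak at each stage. A region was kept where the E14.5 peak and the E16.5 peak overlapped by at least 50% of each of them, which 57608 of 85709 single-peak pairs did, out of 217279 regions after the peaks of both stages were merged and 266531 after the peaks of all 3 stages of the series were merged. Each stage was 1 library of single-nucleus ATAC-seq, in which a transposase cuts open DNA and the cuts are counted under peaks, with 20023 nuclei at E14.5 and 14048 at E16.5. Embryos at both stages were Hic1CreERT2/CreERT2;Rosa26LSLtdTomato/tdTomato on C57BL/6J, from dams over 7 weeks of age given 7.5 mg tamoxifen in 300 uL sunflower oil by gavage at embryonic day 10, so the Hic1 locus carried the CreERT2 insertion on both alleles in every nucleus. Because the recombinase is driven from Hic1, the label marks cells that used this gene near the time of tamoxifen together with their descendants. Male and female embryos were pooled. Cells were freed with Collagenase A, Pronase and DNase at both stages, and were then sorted as tdTomato+ and negative for CD45, CD117, CD31, CD11b, F4/80 and Ter119. The E14.5 cells came from whole forelimbs, whereas the E16.5 cells came from the segment around the elbow, that is the distal stylopod, the proximal zeugopod and the joint between them. No replicate check was possible, since a stage was 1 library, and stage, limb segment, library and processing version cannot be told apart; higher and lower below describe these libraries only.

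Open chromatin is found at gene starts and at enhancers, the distant elements that carry much of the cell-type and stage information of a genome. Mesenchymal progenitors (MPs) of the limb give rise to tendon, cartilage, dermis, muscle connective tissue and the fibroblasts around nerves and vessels, and position along the limb is written in the Hox and Meis genes. Many enhancers are bound by factors with short recognition sequences, among them AP-1, a Fos and Jun dimer that responds to growth and stress signals, nuclear factor I (NFI), the Hippo pathway's TEAD factors, and the HOX13 proteins of the hand plate. CTCF marks the borders of chromatin loops.

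The regions at the extremes of the comparison are shown first by their sequence. Each is the central 200 bases shared by both peaks on the + strand of mouse GRCm38.p6, for the highest and the lowest region of each class among those at or above the median level of the class, and capitals mark letters that match AP-1 (TGANTCA), the NFI arm (TTGGCA), TEAD (GGAATG), HOX13 (CCAATAAA) or CTCF (AGNNGGCGC) on either strand. The name is that of the protein-coding gene with the nearest start site. The promoter regions were at chr3:96576702-96576901 (Gm16253, higher at E16.5) and chr6:122486276-122486475 (Rimklb, lower).
Gm16253 promoter region, higher at E16.5: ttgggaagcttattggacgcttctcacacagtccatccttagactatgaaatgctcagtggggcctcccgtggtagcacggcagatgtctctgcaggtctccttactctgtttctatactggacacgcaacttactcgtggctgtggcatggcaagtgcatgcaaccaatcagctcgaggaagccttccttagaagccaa
Rimklb promoter region, lower at E16.5: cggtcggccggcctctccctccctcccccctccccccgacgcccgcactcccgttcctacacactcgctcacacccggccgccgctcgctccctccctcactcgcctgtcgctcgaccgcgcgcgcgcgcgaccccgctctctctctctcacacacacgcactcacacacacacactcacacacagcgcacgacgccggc
Neither promoter window held a match. The Rimklb window lay in a CpG-rich start site, with 28 CpG in the 200 bases printed, against 6 for Gm16253. The intron regions were at chr6:92021405-92021604 (inside Fgd5, higher) and chr7:98955255-98955454 (inside Uvrag, nearest to the Wnt11 start, lower).
Fgd5 intron region, higher at E16.5: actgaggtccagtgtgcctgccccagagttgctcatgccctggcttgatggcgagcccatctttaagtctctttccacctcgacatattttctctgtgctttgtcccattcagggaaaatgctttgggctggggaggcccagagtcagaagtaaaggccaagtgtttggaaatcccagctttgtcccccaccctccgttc
Region near Wnt11, lower at E16.5: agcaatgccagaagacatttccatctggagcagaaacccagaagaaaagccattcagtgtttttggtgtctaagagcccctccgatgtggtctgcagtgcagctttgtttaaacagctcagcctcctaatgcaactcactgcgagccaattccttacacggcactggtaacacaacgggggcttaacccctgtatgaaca
The intergenic regions were at chr2:170322054-170322253 (nearest to Bcas1, higher) and chr13:56139315-56139514 (nearest to H2afy, lower). The Bcas1 window held an AP-1 match and the H2afy window an NFI match.
Region near Bcas1, higher at E16.5: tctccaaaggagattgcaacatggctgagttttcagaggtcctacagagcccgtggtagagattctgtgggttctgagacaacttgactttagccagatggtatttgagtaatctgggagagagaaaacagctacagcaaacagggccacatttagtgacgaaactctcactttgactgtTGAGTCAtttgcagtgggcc
Region near H2afy, lower at E16.5: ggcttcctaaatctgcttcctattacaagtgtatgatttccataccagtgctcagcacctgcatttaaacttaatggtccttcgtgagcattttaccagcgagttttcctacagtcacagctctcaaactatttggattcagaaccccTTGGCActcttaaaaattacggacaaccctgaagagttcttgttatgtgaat
A further 4 regions were chosen after their values were seen, to show matches of the motifs that separated higher from lower regions. The regions near Olfm2 (chr9:20760919-20761118, intergenic) and Myl10 (chr5:136784691-136784890, an intron of Col26a1) held AP-1 letters and were higher at E16.5. The intergenic regions near Psat1 (chr19:15827682-15827881) and Mylip (chr13:45440371-45440570) held HOX13 letters and were lower.
Region near Olfm2, higher at E16.5: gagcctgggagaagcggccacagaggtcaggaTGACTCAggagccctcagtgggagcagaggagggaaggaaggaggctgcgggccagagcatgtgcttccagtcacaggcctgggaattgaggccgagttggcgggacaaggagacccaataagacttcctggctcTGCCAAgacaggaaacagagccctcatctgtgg
Region near Myl10, higher at E16.5: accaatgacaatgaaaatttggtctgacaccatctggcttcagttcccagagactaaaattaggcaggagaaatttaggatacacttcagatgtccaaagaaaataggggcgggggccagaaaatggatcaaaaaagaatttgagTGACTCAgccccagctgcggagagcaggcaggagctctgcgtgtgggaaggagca
Region near Psat1, lower at E16.5: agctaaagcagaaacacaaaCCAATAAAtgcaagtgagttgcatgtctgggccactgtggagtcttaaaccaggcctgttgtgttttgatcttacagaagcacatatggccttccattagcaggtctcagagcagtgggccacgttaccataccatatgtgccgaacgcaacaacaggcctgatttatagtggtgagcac
Region near Mylip, lower at E16.5: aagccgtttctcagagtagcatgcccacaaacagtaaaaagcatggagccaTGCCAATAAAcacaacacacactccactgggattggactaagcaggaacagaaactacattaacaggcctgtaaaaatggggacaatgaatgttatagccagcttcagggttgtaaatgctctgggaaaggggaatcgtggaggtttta
The Mylip match overlaps an NFI match. A match of letters describes the sequence and does not show that a factor was bound.

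Depth and called peaks differed between the stages. A nucleus held a median of 8575 counts at E14.5 and 26694 at E16.5, and 102459 peaks were called at E14.5 against 213613 at E16.5. The matched regions took in 56.2% of the E14.5 peaks with 77.0% of its counts, and 27.0% of the E16.5 peaks with 57.3% of its counts. A further 117890 E16.5 peaks, or 55.2% of that list, touched no E14.5 peak, and they lie outside every value below. The matched regions held 157274941 cut sites at E14.5 and 237009529 at E16.5, and a region had a median of 1235 and 2103. Levels are counts scaled to 1000000 (CPM) within the matched regions, and ratios are log2 of E16.5 over E14.5. Intervals are 95% intervals (exact Poisson for a level, Clopper-Pearson for a ratio) on fragments, taken as cut sites over 2, and cover counting error only. A ratio interval of a single region had a median reach of 0.148 to either side, and 47222 of the 57608 regions had an interval wholly on 1 side of 0. The libraries shared 401 cell barcodes, which is 2.003% of the E14.5 barcodes and 2.85% of the E16.5 barcodes.

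Peak width moved with the ratio. The E16.5 peak was wider in 92.5% of the matched regions, and it was wider in 100% of the regions at least 2-fold higher, while of the regions at least 2-fold lower 83.8% were narrower. The Spearman correlation between the count ratio and the width ratio was 0.717 over the 57608 regions, which share both libraries. The overlap rule also moved with it. Pairs just inside the rule, at 50 to 55% overlap, had a median log2 ratio of 0.69 (n = 5219), pairs just outside, at 45 to 50%, had 0.83 (n = 4572), and pairs at 80% or more had -0.29 (n = 19840). Values per kb of called width are therefore given beside many of the main ones. They too were scaled to 1000000, which added 0.36 to every log2 ratio per kb, so that on the unchanged scale each of them is lower by 0.36 and its sign rests in part on the scaling. Calls past 2-fold per kb use the rescaled values unless stated. The unchanged scale was added after the data had been seen. The part of width and overlap in the ratios was not tested.

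Promoter regions moved little and mostly down, and intron and intergenic regions spread both ways around a median above 0. A promoter region is one where the stretch shared by both peaks touched the span from 1000 bp before to 100 bp after an annotated start site. The 13422 promoter regions had a median log2 ratio of -0.13 (25th to 75th percentile, -0.28 to 0.040), and their median level was 42.1 CPM at E14.5 and 38.4 CPM at E16.5. The 19697 intron regions had a median of 0.16 (-0.35 to 0.58), from 5.64 to 6.40 CPM, and the 20253 intergenic regions one of 0.14 (-0.36 to 0.56), from 6.03 to 6.67 CPM. The 4236 exon regions had a median of 0.17. Promoter regions took 60.1% of the matched counts at E14.5 and 55% at E16.5, whereas introns went from 16.6% to 19% and intergenic regions from 18.4% to 20.7%. Per kb the class medians were closer together, at -0.10 for promoters, 0.011 for introns and 0.026 for intergenic regions, and on the unchanged scale all 3 were below 0, at -0.47, -0.35 and -0.34.

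The order of the classes depended on the overlap of the peaks. Among regions that overlapped by 50 to 80%, introns (0.36) and intergenic regions (0.36) lay above promoters (-0.047). Among those that overlapped by 80% or more, introns (-0.45) and intergenic regions (-0.42) lay below promoters (-0.20). The statement that distal regions were higher than promoters at E16.5 thus holds for the looser pairs and is turned round for the tightest ones. These bands were chosen after the data had been seen. Values given below with the 80% overlap rule come from these 19840 regions and stand in pairs, first rescaled to 1000000 counts within them and then on the unchanged scale, which was also added after the data had been seen. The rule left 8621 genes with a value, with a median of -0.012 rescaled and -0.20 on the unchanged scale.

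Regions past 2-fold were mostly distal. Of all matched regions 3579 (6.21%) were at least 2-fold higher and 3918 (6.80%) at least 2-fold lower at E16.5. Of promoter regions 152 (1.13%) were higher and 187 (1.39%) lower. Of intron regions 1608 (8.16%) were higher and 1704 (8.65%) lower, and of intergenic regions 1519 (7.50%) were higher and 1798 (8.88%) lower. Per kb, 1003 regions were at least 2-fold higher and 968 at least 2-fold lower, and on the unchanged scale 175 and 5389.

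**Figure D1:**
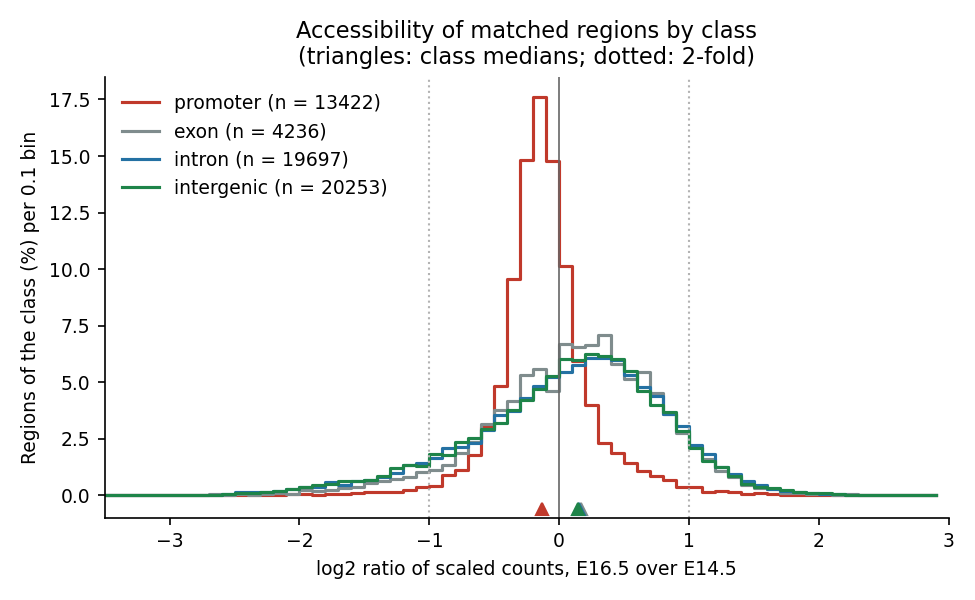
Distribution of the log2 ratio of E16.5 over E14.5 for matched promoter, exon, intron and intergenic regions, in bins 0.1 wide, as a percentage of the regions of the class, with triangles at the class medians and dotted lines at 2-fold. Promoter regions lie in a narrow peak with a median of -0.13, and intron and intergenic regions spread wider around medians of 0.16 and 0.14.

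Among promoters, the ratio went down with CpG content. Promoters with 0 to 4 CpG in the central 300 bases had a median of 0.15 (n = 1130), those with 5 to 14 had -0.023 (n = 3091), those with 15 to 24 had -0.11 (n = 3199) and those with 25 or more had -0.19 (n = 6002). Of the 152 promoters at least 2-fold higher, 83 had 0 to 4 CpG and 0 had 25 or more. Of the 187 at least 2-fold lower, 70 had 0 to 4 CpG and 30 had 25 or more. As shares, 7.35% of the promoters with 0 to 4 CpG were higher and 6.19% lower. Among those with 25 or more, 0% were higher and 0.50% lower, so CpG-poor promoters spread more in both directions. CpG-rich start sites belong mostly to broadly used genes, and CpG-poor ones more often to tissue-restricted genes. Here, however, the promoters with 0 to 4 CpG lay a median of 7485.5 bp from the nearest protein-coding start, against 136 bp for those with 25 or more. Many of the CpG-poor ones thus lay at annotated starts of genes that are not protein-coding. Promoters with the fewest CpG also lay above those with the most in both overlap bands, with medians of 0.36 and -0.14 at 50 to 80% overlap and -0.17 and -0.23 at 80% or more. The groups between were not run within the bands.

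Among distal regions, which are the 39950 intron and intergenic regions together, the ratio went down with distance from the nearest protein-coding start site beyond 1 kb. The median was 0.28 at 1 to 5 kb (n = 2328), 0.27 at 5 to 20 kb (n = 7864), 0.17 at 20 to 100 kb (n = 16315), 0.015 at 100 to 500 kb (n = 11949) and -0.13 beyond 500 kb (n = 1441). The 53 regions under 1 kb lay off this order, with a median of 0.068 and 11.3% at least 2-fold lower. The share at least 2-fold lower went from 6.40% at 1 to 5 kb to 15.5% beyond 500 kb. Within the overlap bands the nearest and the farthest of these groups had medians of 0.42 and 0.24 at 50 to 80%, and of -0.30 and -0.59 at 80% or more. The weakest distal regions were lower than the rest, with a median of -0.17 in the lowest of 4 equal groups by level and 0.24, 0.24 and 0.23 in the others. A region entered only if a peak was called at both stages, and E14.5 had 102459 peaks against 213613 at E16.5. The part of this rule in the ratio of weak regions was not tested. Chromosomes differed little, from 0.10 on chromosome 12 to 0.24 on chromosome 11.

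**Figure D2:**
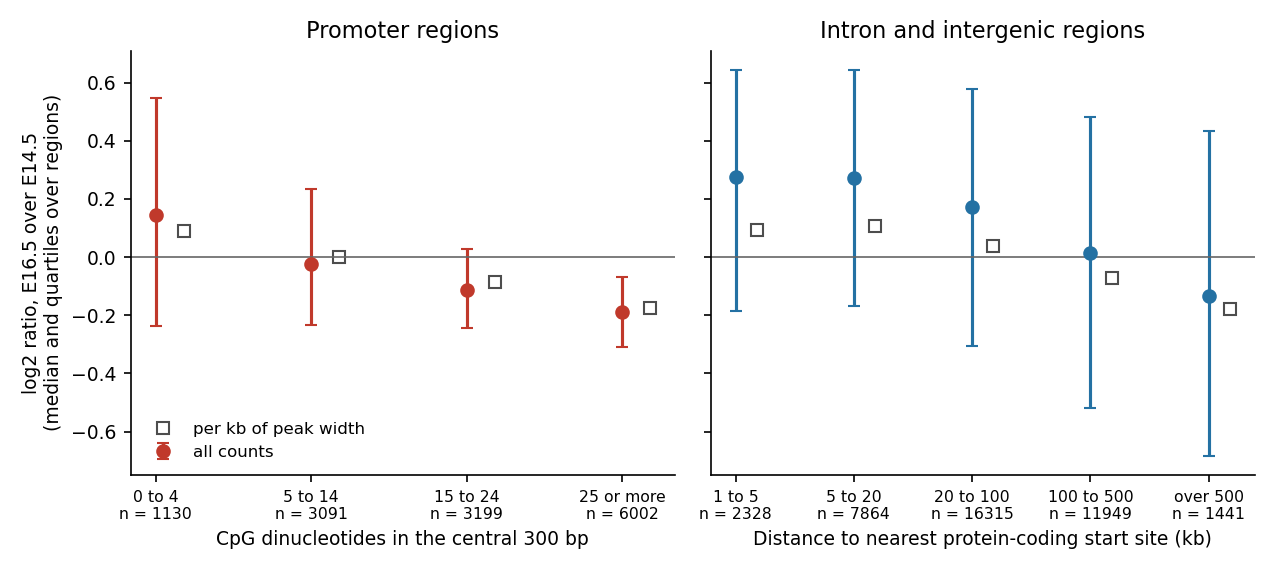
Log2 ratio of E16.5 over E14.5 by number of CpG in the central 300 bases of promoter regions, and by distance in kb from intron and intergenic regions to the nearest protein-coding start site, without the 53 regions under 1 kb. Filled points with bars are medians with the 25th and 75th percentile over regions, and open squares are medians per kb of peak width. Medians go from 0.15 to -0.19 with rising CpG number and from 0.28 to -0.13 with rising distance.

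Among single promoter regions at or above the class median of 40.3 CPM, the largest ratios were modest. Below that level, promoter ratios ran from the bin that starts at -3 to the bin that starts at 2.4. The Gm16253 promoter went from 24.5 CPM (interval 23.4 to 25.7) to 57.5 CPM (56.2 to 58.9), a log2 ratio of 1.23 (1.16 to 1.30). A region at the start of the noncoding gene Gm38901, nearest to Tspan11, went from 24.6 to 56.7 CPM (1.21). S100a10, which encodes the small partner of annexin A2, went from 42.6 to 84.4 CPM (0.99), and the start of Gm47972, near the phosphatase gene Ctdsp2, from 29.8 to 54.2 CPM (0.86). No promoter at or above the class median level had a higher ratio than these 4. Lower at E16.5 were Rimklb, an enzyme gene of N-acetylaspartylglutamate synthesis, from 61.8 to 29.8 CPM (-1.05), and Ctnnd2, which encodes the neural delta-catenin, from 53.9 to 28.9 CPM (-0.90). Tunar, named for a noncoding transcript of neural differentiation, went from 76.8 to 41.2 CPM (-0.90) and B4galnt4, a glycosyltransferase gene, from 59.5 to 31.9 CPM (-0.90). Per kb Rimklb was at -0.84.

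The named distal regions reached larger ratios. They had to meet lower class medians, 6.13 CPM for introns and 6.46 CPM for intergenic regions, so they and the named promoters differ in level. In introns, a region of Fgd5, which encodes an exchange factor for Cdc42, went from 9.59 to 48.0 CPM (2.32, interval 2.21 to 2.44), one of Lax1, an adaptor of lymphocytes, from 3.8 to 18.6 CPM (2.30), and one of Agtr1a, the angiotensin II receptor, from 3.59 to 17.5 CPM (2.29). The region near Myl10 shown above went from 4.06 to 19.1 CPM (2.23). On the lower side, the region near Wnt11, a ligand of non-canonical Wnt signalling, went from 11.3 to 1.46 CPM (-2.96, interval -3.20 to -2.72). A region of Cntnap2 went from 10.9 to 1.86 CPM (-2.55). The region near Maf, a transcription factor gene, lay inside Wwox and went from 17.3 to 3.06 CPM (-2.50), and the region near Trim32 lay inside Astn2 and went from 12.4 to 2.24 CPM (-2.47). In these 8 introns the peak called at the higher stage was also the wider one, such as 1200 bp and 2379 bp at Fgd5 and 883 bp and 455 bp near Wnt11.

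Between genes, the region near Bcas1 went from 3.37 to 20.1 CPM (2.58, interval 2.39 to 2.77), and regions near Dennd1b, Mpdz and Olfm2 had ratios of 2.48, 2.45 and 2.44. The region near H2afy, which encodes the histone variant macroH2A1, went from 19.2 to 2.10 CPM (-3.19, interval -3.39 to -2.99). Regions near Slc10a2, Galc and Ackr3, the last a scavenger receptor of CXCL12, had ratios of -2.96, -2.78 and -2.74. None of these 24 named regions changed sign under the alternatives in which it had a value, although per kb on the unchanged scale a ratio past 2-fold cannot do so, since the overlap rule keeps the widths of a pair within 2-fold of each other. With the 80% overlap rule only 4 of them had one, the lower promoters of Rimklb, Ctnnd2, Tunar and B4galnt4, so that rule says nothing of the named intron and intergenic regions. Per kb the ratio near Bcas1 was 1.96 and that near H2afy was -1.90.

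AP-1 letters were more frequent in distal regions that were higher at E16.5. They lay in the central 300 bases of 11.6% of all 39950 distal regions, of 23.1% of those at least 2-fold higher, of 10.8% of those between, and of 9.37% of those at least 2-fold lower. Defined per kb, the shares were 27.7% of higher and 7.44% of lower regions. The 4639 regions with AP-1 letters had a median ratio of 0.34 and those without had 0.13. The order was the same at 50 to 80% overlap (0.55 and 0.34) and at 80% or more (-0.35 and -0.44). It was also seen in each of 5 bands of GC content. In the lowest of these, 20.6% of higher, 12.2% of intermediate and 11.2% of lower regions held a match, and in the highest 24.7%, 7.33% and 3.89%. Across bins of the ratio the share went from 8.85% under -2 to 30.3% over 1.5. In promoters the letters lay in 4.001% of all regions and in 20.4% of the 152 at least 2-fold higher.

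HOX13 letters showed the opposite order at a low frequency. They lay in 1.79% of all distal regions, in 1.25% of those higher, 1.72% of those between and 2.88% of those lower, and per kb in 1.27% of higher and 4.92% of lower regions. The 714 regions with the letters had a median of -0.040 and those without had 0.15. This order held in both overlap bands, at 0.23 and 0.36 and at -0.58 and -0.43. In each band of GC content the letters were less frequent in higher than in lower regions. In the band of 55% GC or more, however, intermediate regions had the smallest share, at 0.81% of higher, 0.36% of intermediate and 1.11% of lower regions. CTCF letters were scarce among lower regions, at 1.14% against 3.98% of all and 4.06% of higher ones, and regions with them had a median of 0.38. Defined per kb, the CTCF shares were 1.62% of higher and 1.08% of lower regions, so that the letters were scarce in both. Across bins of the ratio the CTCF share was greatest at 5.87% between 0.5 and 1 and was 1.74% over 1.5.

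Among distal regions, NFI letters lay in 23.4% of all distal regions, 28.1% of higher and 23.8% of lower ones, and the medians with and without them did not keep their order across the overlap bands (0.38 and 0.35, then -0.45 and -0.43). TEAD letters lay in 22.2% of all, 23.8% of higher and 24.3% of lower regions. RUNX (TGTGGTT) was at 8.51%, 8.22% and 9.71%, SOX (ACAATGG) at 3.51%, 3.42% and 3.54%, and PBX-MEIS (TGATTGACA) at 0.275%, 0.288% and 0.200%, in the same order. NF-Y (CCAAT), whose letters are contained in the HOX13 motif, was at 34.8%, 33.9% and 38.4%, and EBF (CCCNNGGGA) at 5.29%, 6.20% and 4.28%. In promoters the SP letters (GGGCGG), typical of CpG-rich starts, lay in 54.6% of all regions, in 10.5% of those at least 2-fold higher and in 25.1% of those at least 2-fold lower. NRF1 (GCGCATGCG) and ETS (CCGGAAG) letters lay in 1.44% and 11.0% of all promoters, in 0.658% and 3.29% of the higher ones and in 0% and 1.60% of the lower ones. NFI letters lay in 10.4% of all promoters, 26.3% of the higher and 14.97% of the lower ones.

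**Figure D3:**
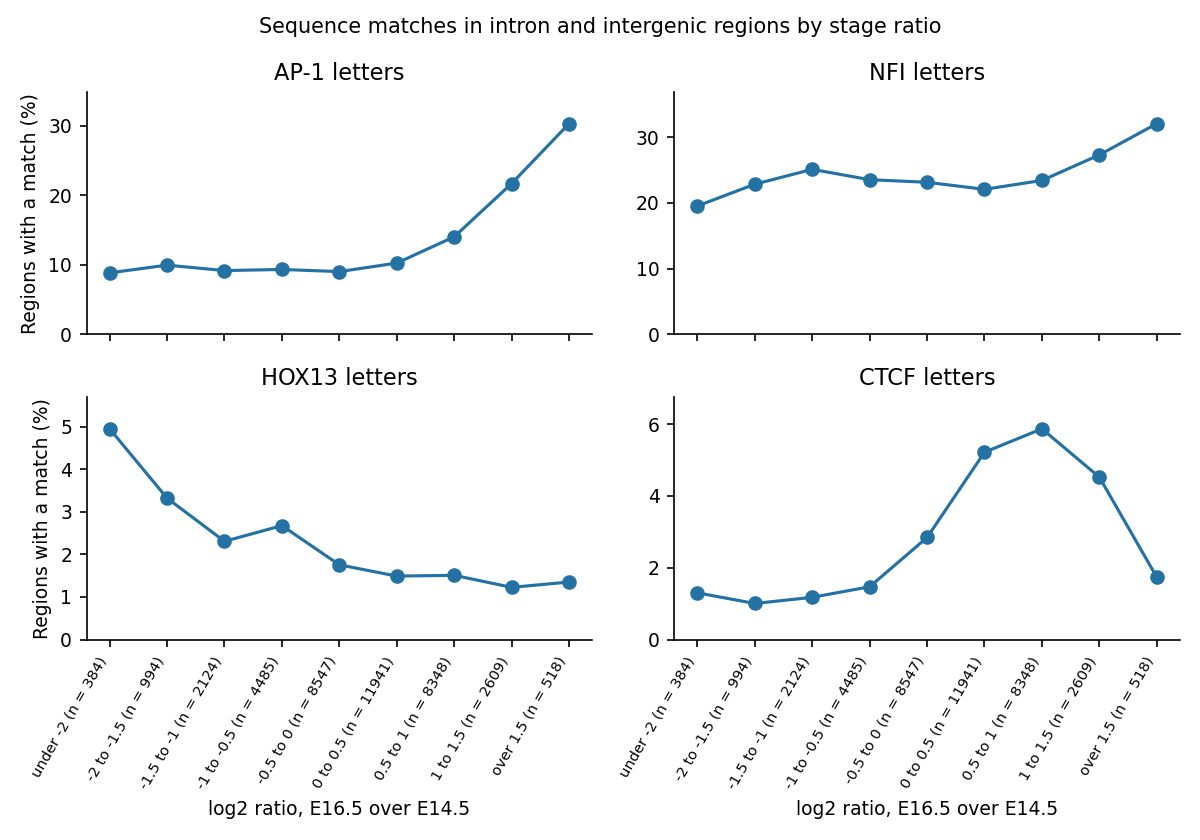
Share (%) of intron and intergenic regions that hold the letters of AP-1, NFI, HOX13 or CTCF in their central 300 bases, by bin of the log2 ratio of E16.5 over E14.5. AP-1 goes from 8.85% in the lowest bin to 30.3% in the highest, HOX13 from 4.95% to 1.35%, and CTCF peaks at 5.87% between 0.5 and 1.

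Summed over the regions in a gene body and the 2000 bp before it, 14413 of 20807 autosomal protein-coding genes had a value. Of the 6394 without one, 1557 had peaks at both stages but no matched region, 1158 had peaks at E16.5 only, 16 at E14.5 only and 3663 at neither. Hic1 was among the genes without a matched region. The genes had a median log2 ratio of -0.090 (25th to 75th percentile, -0.23 to 0.081), and 137 (0.951%) were at least 2-fold higher and 87 (0.604%) at least 2-fold lower. Genes with 1 region had a median of -0.12 and genes with more than 10 had 0.030. Of the matched regions 32930 lay in a gene and 2593 of these in more than 1 gene, so that neighbouring genes can share counts.

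Within genes, promoter regions lay mostly below 0 and the remaining regions mostly above 0, as the classes did. In 2605 genes with both, the median ratio was -0.19 at the promoter and 0.18 elsewhere in the gene, and the rest of the gene lay above the promoter in 79.7% of them. The promoter was lower and the rest higher in 1348 genes, and the reverse was seen in 137. Both were higher in 409 genes and both lower in 711. Over all matched regions, 29.8% of promoter regions and 58.7% of intron regions lay above 0. Opposite signs would thus be frequent without any link within a gene, and these counts do not show one. The promoter ratio and the ratio of the rest had a Spearman correlation of 0.18 over these genes. Col4a1, a basement membrane collagen, is an example of a lower promoter and a higher rest. It had a promoter ratio of -0.14 and a ratio of 1.03 over 5 other regions. Pdgfra, a receptor that marks mesenchymal progenitors, had a promoter ratio of -0.14 and a ratio of 1.35 over 2 others. These comparisons within genes use the main values at all overlaps. Over all regions, the class medians per kb were -0.10 for promoters and 0.011 for introns. At 80% or more overlap introns (-0.45) lay below promoters (-0.20). The part of width and overlap in the comparison within genes was not tested.

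Among 2561 genes with at least 3 regions and a level at or above the median of all genes, Trp73, a relative of p53, went from 33.1 CPM (interval 31.8 to 34.4) to 74.2 CPM (72.7 to 75.8), a ratio of 1.17 (1.104 to 1.23) and of 0.62 per kb, with an exon region at its end that went from 21.5 to 58.1 CPM and lies nearest to the Ccdc27 start. Tnxb, which encodes the matrix glycoprotein tenascin-X, went from 43.9 to 87.1 CPM (0.99). Its exon region went from 24.99 to 66.99 CPM (1.42) while an intron region went from 12.9 to 11.5 CPM (-0.16), and the gene ratio was 0.036 rescaled and -0.16 on the unchanged scale with the 80% overlap rule.

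Hoxc5 went from 44.98 to 81.9 CPM (0.86), over 3 regions that lie in its long annotated span nearest to the starts of Hoxc8 and Hoxc9, so the value describes that stretch of the Hoxc cluster. The ectoenzyme gene Enpp3 went from 51.4 to 90.6 CPM (0.82) with its promoter at 11.96 and 31.8 CPM (1.41), and the glutaminyl cyclase gene Qpct from 49.0 to 86.2 CPM (0.81). Tmem26 (0.81), the flippase gene Atp8b4 (0.80), Filip1, whose product binds filamin (0.80), and the lipid kinase gene Pik3c2g (0.79) completed the higher group. Per kb these genes ran from 0.29 for Hoxc5 to 0.62 for Trp73, and on the unchanged scale Hoxc5 (-0.073) and Pik3c2g (-0.035) lay below 0 and Trp73 was at 0.26. With the 80% overlap rule only 4 of them had a value, of which Tmem26 (-0.50 and -0.69), Pik3c2g (-0.24 and -0.44) and Filip1 (-0.014 and -0.21) lay below 0 on both scales and Tnxb on the unchanged one. Trp73, Hoxc5, Enpp3, Qpct and Atp8b4 had no value under that rule. Trp73, Tnxb, Hoxc5, Tmem26, Atp8b4 and Pik3c2g had no matched promoter region of their own, whereas each of the lower genes below had one. The higher and lower groups thus differ in the classes summed, and promoters had a lower class median (-0.13) than introns (0.16).

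The lowest ratio among the same genes was that of Rims1. Rims1, which encodes a scaffold of the presynaptic release site, went from 93.9 CPM (interval 91.8 to 96.1) to 49.8 CPM (48.6 to 51.1), a ratio of -0.91 (-0.96 to -0.87). Its promoter went from 44.6 to 28.6 CPM (-0.65) and an exon region from 45.2 to 16.9 CPM (-1.42). Kcnk3, a background potassium channel, went from 83.3 to 46.5 CPM (-0.84), Wipf3, which binds the actin regulator WASP, from 68.9 to 38.9 CPM (-0.83), and Rimklb from 121 to 69.2 CPM (-0.81). The axon guidance gene Draxin had a ratio of -0.72, and its promoter, which is shared with Mad2l2, went from 49.2 to 23.4 CPM. Lypd6, whose product modulates Wnt signalling, was at -0.72 and Rtn4r, the Nogo receptor, at -0.70. Fras1, a matrix protein that anchors epithelium to mesenchyme, went from 115 to 70.8 CPM (-0.70), Fam184a had -0.70, and Tacr1, the substance P receptor, went from 87.6 to 54.8 CPM (-0.68). All 10 of these genes had a promoter ratio below 0. This follows in part from the choice, since promoter counts are in the sums by which the genes were chosen. Of all promoter regions, 29.8% lay above 0. None of the 10 genes changed sign under an alternative in which it had a value. The unchanged scale lowers the rescaled ratios, so it could hardly turn a gene below 0. The sizes of these ratios depended on which regions were given to the gene. With regions given to the nearest start site, Draxin was at -0.11, Rtn4r at -0.14, Fam184a at -0.31 and Rims1 at -0.45, and Trp73 of the higher group was at 0.63.

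**Figure D4:**
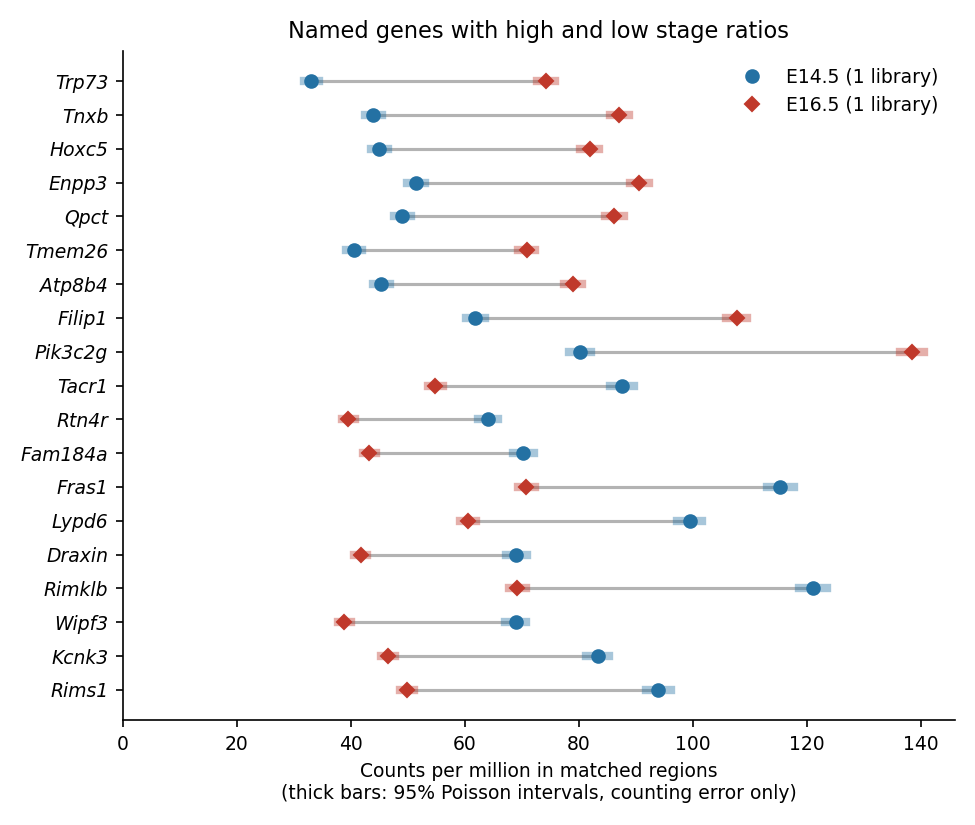
Level in CPM of matched regions at E14.5 (circles) and E16.5 (diamonds) for the genes named above for a high or low ratio, each with at least 3 regions, ordered by ratio, with thick bars for 95% intervals that cover counting error only. The interval pairs do not overlap in any gene shown, from Trp73 at 33.1 and 74.2 CPM at the top to Rims1 at 93.9 and 49.8 CPM at the bottom. The genes were chosen by their ratios in these same counts, so this separation follows from the choice.

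Genes were then read by 33 lists of cell types, limb position, factors and pathways, with 267 of 359 distinct genes carrying a value. Of these, 7 were at least 2-fold higher and 1 at least 2-fold lower, against 0.951% and 0.604% of all genes, and the median over all genes was -0.090, or -0.062 per kb and -0.42 per kb on the unchanged scale. The signs of most list medians depended on the processing, since 25 of the 33 changed sign under at least 1 alternative. The 8 that did not were the chondrogenic, dermal, distal limb, developmental timing, retinoic acid, BMP and TGF-beta, endothelial and Schwann cell lists, all below 0, and 3 of these had no value with the 80% overlap rule. On the unchanged scale 15 medians per kb and 13 with the 80% overlap rule had turned, all of them above 0 in the main values. Most of these were already below 0 with rescaling, such as NFI per kb (-0.0015) and fibrogenic with 80% overlap (-0.082). The unchanged scale lowers the rescaled values, so it could hardly turn a median below 0. The shared direction rests in part on it. In the main values, the chondrogenic, dermal, BMP and TGF-beta, endothelial and Schwann cell medians lay above the -0.090 of all genes. In summed nuclei, fewer cells of a type and less open chromatin per cell cannot be told apart. Fibrogenic genes had the highest median, 0.59 (11 of 15 genes with a value, 8 above 0, per kb 0.39). Dpt, which encodes the matrix protein dermatopontin, went from 6.98 CPM (interval 6.41 to 7.59) to 26.0 CPM (25.1 to 27.0), a ratio of 1.90 that rested on 1 region. Mfap5, a microfibril component, went from 8.98 to 17.6 CPM (0.97), the stromal surface gene Cd34 from 30.3 to 51.8 CPM (0.77) and Pdpn from 53.8 to 90.7 CPM (0.75). Pdgfra had the highest level of the list, at 202 and 196 CPM (-0.048), and Pi16, a marker of adventitial fibroblasts, had the lowest ratio, -0.072, at 21.7 and 20.7 CPM. The list median was 0.030 per kb on the unchanged scale, and -0.082 and -0.27 with the 80% overlap rule.

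Collagens outside cartilage had a value above 0 in 11 of 11 genes, of 16 in the list, with a median of 0.43 (per kb 0.23). The fibrillar collagen genes Col5a3 and Col5a2 went from 24.98 to 54.4 CPM (1.12, interval 1.05 to 1.197) and from 84.0 to 141 CPM (0.75). Col4a2, of basement membranes, went from 154 to 208 CPM (0.43), and Col5a1 had the lowest ratio, 0.069, at 145 and 152 CPM. Pericyte genes had a median of 0.44 (8 of 9 genes, per kb 0.21). Acta2, smooth muscle actin, went from 25.7 to 46.9 CPM (0.86) and the proteoglycan gene Cspg4 from 45.7 to 71.3 CPM (0.64), while Rgs5, a signalling regulator typical of pericytes, went from 15.3 to 11.3 CPM (-0.44). With the 80% overlap rule the collagen median was 0.069 and -0.12, and thus below 0 on the unchanged scale, and the pericyte median was 0.22 and 0.029. Per kb on the unchanged scale both lay below 0, at -0.13 and -0.15.

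Limb position genes stood on either side of 0. The distal list had a median of -0.34 (6 of 10 genes, per kb -0.38) and the proximal list one of 0.25 (7 of 10 genes, per kb 0.17), and with the 80% overlap rule the distal list had no value and the proximal median was 0.069 and -0.12. Per kb on the unchanged scale the medians were -0.74 and -0.20. Hoxd13, a Hox gene of the hand plate, went from 42.3 CPM (interval 40.8 to 43.7) to 29.0 CPM (28.0 to 30.0), a ratio of -0.54. Lhx2, of the distal mesenchyme, went from 72.8 to 52.4 CPM (-0.47), Lhx9 from 45.2 to 33.8 CPM (-0.42) and Hoxd11 from 91.1 to 76.8 CPM (-0.25), while Msx2 was at 24.7 and 24.9 CPM (0.014). On the proximal side Hoxc9 went from 10.9 to 17.7 CPM (0.70), in a single region that it shares with Hoxc5. Meis1, which marks the proximal limb, went from 110 to 141 CPM (0.36), and Hoxa9 had the lowest ratio, -0.12, at 147 and 135 CPM. The E16.5 segment lacked the autopod, and the part of the dissection in these values was not tested.

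Cartilage, joint and tendon lists had medians between -0.17 and 0.0096, beside -0.090 for all genes. The chondrogenic list had a median of -0.080 (15 of 18 genes, per kb -0.21, and -0.199 and -0.39 with the 80% overlap rule) from Col9a3, a cartilage collagen, at 20.4 and 12.9 CPM (-0.66), to Epyc, a cartilage proteoglycan, at 17.1 and 24.7 CPM (0.53). Sox6, a partner of Sox9 in chondrocytes, had the highest level with 204 and 193 CPM (-0.079). The joint list had a median of -0.17 (8 of 10 genes, per kb -0.18), which was 0.17 and -0.020 with the 80% overlap rule. Gdf6, a growth factor of the joint interzone, went from 4.25 CPM (interval 3.804 to 4.73) to 1.08 CPM (0.909 to 1.29), a ratio of -1.97 (-2.27 to -1.67) on 1 region. Erg, a factor of joint cartilage, went from 129 to 109 CPM (-0.24) and Trps1 had the highest ratio, 0.080, at 99.6 and 105 CPM. The tenogenic list had a median of 0.0096 (10 of 12 genes, per kb -0.051, and -0.011 and -0.20 with the 80% overlap rule). Its marker factor Scx went from 33.1 to 23.4 CPM (-0.50), and Col11a1, the fibrillar collagen with the highest level there, from 130 to 101 CPM (-0.36). C1qtnf3, which the authors used as a marker of fascia, went from 27.5 to 57.9 CPM (1.08).

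Other mesenchymal lists held a few genes that stood apart. The fibrogenic progenitor list had a median of -0.18 (4 of 6 genes), which turned to 0.010 per kb and was -0.16 and -0.35 with the 80% overlap rule. Prrx1, a factor of limb mesenchyme, went from 17.5 to 43.3 CPM (1.31, interval 1.22 to 1.39) over 2 regions, the Wnt agonist gene Rspo3 from 83.7 to 65.5 CPM (-0.35) and Hmcn1 from 248 to 209 CPM (-0.25). Prrx1 was also the highest of the mesenchymal factors, whose median was -0.022, with Zeb1 lowest in ratio at 65.2 and 48.1 CPM (-0.44) and Foxp1 at the highest level, 390 and 380 CPM (-0.038). The dermal list had a median of -0.081 (9 of 13 genes, per kb -0.12), with Col7a1, the anchoring fibril collagen, from 7.87 to 18.5 CPM (1.23), the Wnt inhibitor gene Nkd2 from 68.7 to 51.6 CPM (-0.41) and Axin2 from 126 to 106 CPM (-0.24). The MP list (4 of 10 genes, median -0.056), the osteogenic list (5 of 12, 0.014), the adipogenic list (5 of 9, 0.048) and the perineural list (6 of 6, -0.099) had no gene past 2-fold. With so few genes the MP median ran from -0.70 with the 80% overlap rule on the unchanged scale to 0.091 with regions given to the nearest start site, and the other 3 also changed sign under an alternative. Among their extremes were Sox11 (-0.32) and Tcf7l2 (0.19), Sp7 (0.32), Pparg (-0.14) and Ebf1 (0.17), and Slc2a1 (-0.53) and Itga6 (0.11). Runx2, the master factor of bone, was at 206 and 193 CPM, Ebf2 at 259 and 268 CPM, and the stem cell receptor Lgr5 at 105 and 79.5 CPM.

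Genes of developmental timing had a median of -0.17 (9 of 10 genes, per kb -0.053). Lin28b, which blocks let-7 maturation in early embryos, went from 77.9 CPM (interval 76.0 to 79.9) to 52.6 CPM (51.3 to 53.9), a ratio of -0.57. Igf2bp3, an RNA-binding protein of fetal tissues, went from 25.9 to 57.4 CPM (1.14), and Hmga2, a chromatin protein of the same stage of life, was at 228 and 243 CPM (0.095). The list thus held both directions. Cell cycle genes had a median of 0.015 (15 of 17 genes), with Ccnd2, cyclin D2, from 12.5 to 28.2 CPM (1.18), Ccne2, cyclin E2, from 125 to 89.2 CPM (-0.49) and Ccnd1, cyclin D1, from 125 to 108 CPM (-0.22). Imprinted growth genes had a median of 0.032 (7 of 12 genes), from Ndn (-0.33) to Grb10, an inhibitor of growth factor receptors, at 144 and 171 CPM (0.25).

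Genes of 3 of the factor families whose letters were counted had list medians between 0.042 and 0.13, each of which lay below 0 under some alternatives. The AP-1 list had a median of 0.042 (6 of 12 genes, per kb -0.025), with Jun at 219 and 217 CPM (-0.015), Mafk from 30.4 to 49.2 CPM (0.69) and Batf3 from 50.6 to 44.9 CPM (-0.17); Fos, Fosb, Fosl2, Junb, Jund and Atf3 had no matched region. The NFI list had a median of 0.12 (4 of 4 genes, per kb -0.0015, and -0.051 and -0.24 with the 80% overlap rule), with Nfib at 451 and 469 CPM (0.055), Nfic highest (0.25) and Nfix lowest (-0.072). The TEAD and YAP list had a median of 0.13 (7 of 11 genes, per kb 0.023, and -0.11 and -0.30 with the 80% overlap rule), with Tead1 at 261 and 286 CPM (0.13), Ajuba highest (0.61) and Tead2 lowest (-0.51).

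Marker genes of cells that the sort or the lineage should leave out were measured beside these lists. Myogenic genes had a median of 0.019 (5 of 8 genes, summed level 169 CPM at both stages), endothelial genes -0.0033 (6 of 8, 209 and 189 CPM), epithelial genes -0.091 (5 of 7, 115 and 122 CPM), blood genes 0.11 (5 of 8, 262 and 255 CPM) and Schwann cell genes -0.049 (3 of 6, 144 and 136 CPM). The defining markers Myod1, Myf5, Cdh5, Krt5 and Itgam had no matched region, so the summed levels do not cover them. Their called peaks at E14.5 and E16.5 numbered 1 and 1 for Myod1, 0 and 1 for Myf5 and 1 and 9 for Cdh5. Krt5 had 0 and 2 and Itgam 0 and 5, and more peaks were called at E16.5 in general. The muscle list ran from Myf6, at 5.44 and 3.07 CPM (-0.83), to Myog (0.10), and the endothelial list from Podxl, at 57.7 and 41.8 CPM (-0.46), to Pecam1, at 11.3 and 14.5 CPM (0.36). The blood list ran from the leukocyte gene Ptprc, at 18.8 and 13.1 CPM (-0.52), to Spi1 (0.20), the epithelial list from Epcam (-0.52) to Trp63 (0.44), and the Schwann cell list had Egr2 as its highest level, at 96.4 and 90.2 CPM (-0.10). Their part in the other values was not tested.

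**Figure D5:**
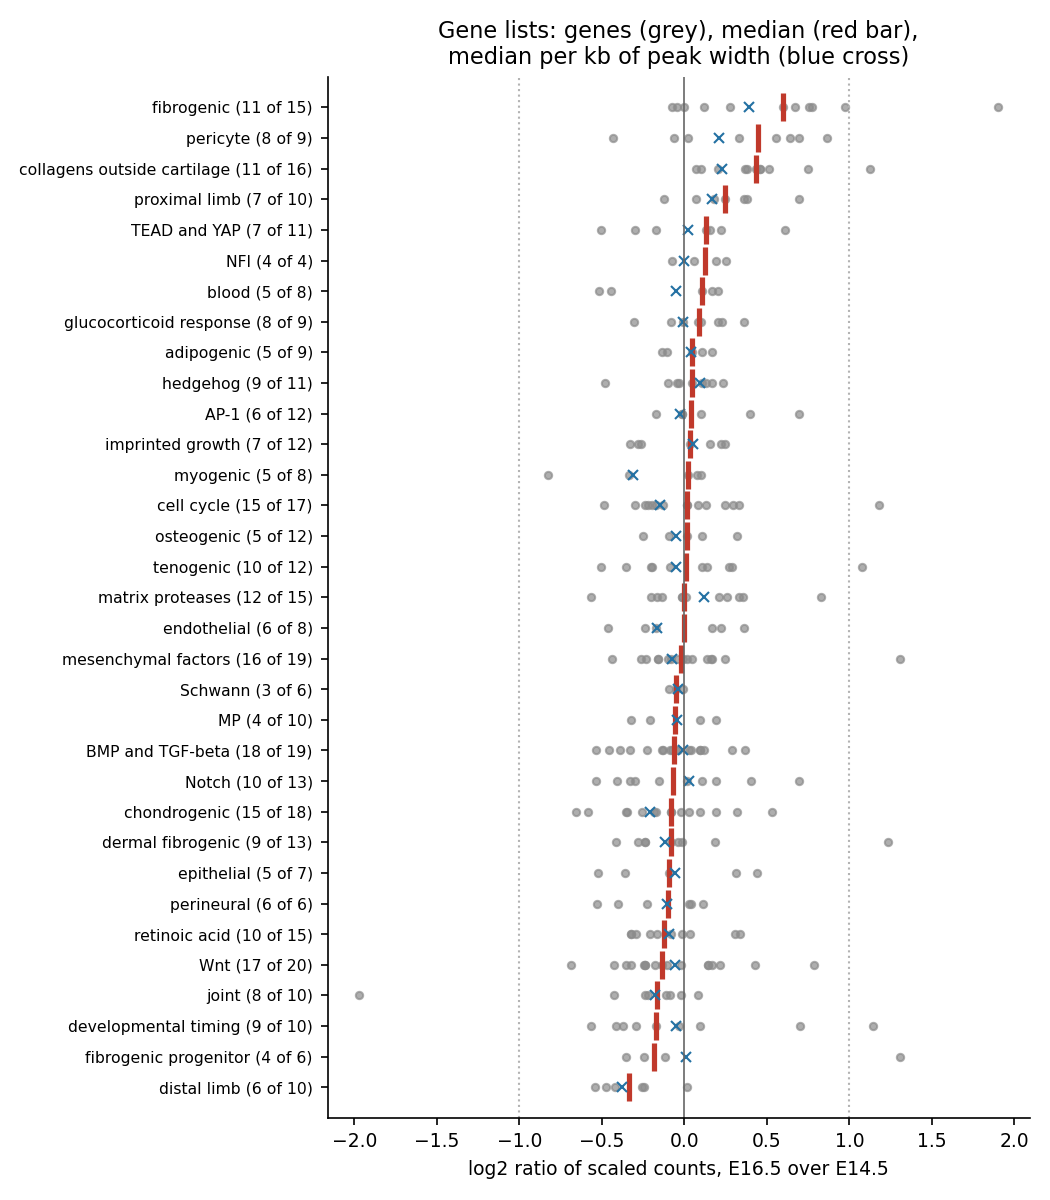
Log2 ratio of E16.5 over E14.5 for each gene with a value in 33 gene lists, as grey points, with a red bar for the list median, a blue cross for the median per kb of peak width, and lists ordered by median. Fibrogenic (0.59), pericyte (0.44) and collagen (0.43) medians are highest, and the distal limb median is lowest (-0.34).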

How the data were processed

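Single-nucleus ATAC-seq libraries of E14.5 and E16.5 were used; the E12.5 library was not used here beyond counting merged regions. The deposited counts are whole-number cut sites per peak and nucleus, which the authors made by aligning to mm10 and calling nuclei and peaks in each library alone. The submitters' processing notes name Cell Ranger ATAC 1.1.0, whereas the matrix headers carry 1.0.1 (E14.5) and 1.2.0 (E16.5); different versions can differ in peak calling, which could change widths and counts. All deposited nuclei were summed per library and no doublet caller was run.

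Peaks were matched with bedtools 2.31.1 as described in the results and classed by GENCODE vM21 basic annotation of GRCm38. Counts were scaled to 1000000 in matched regions. No pseudocount was used. With 1 library per stage no test was run, and a value was called past 2-fold by size alone. Gene values summed regions over the gene body and 2000 bp upstream. Motif letters were searched on both strands in the central 300 bp. The code was tested on simulated data with known folds. Python 3.11.15, numpy 2.4.6, pandas 2.3.3, scipy 1.17.1, pysam 0.24.0, samtools 1.23.1 and matplotlib 3.10.9 were used.

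Named were the 10 highest and 10 lowest genes with at least 3 regions and a level at or above the median; in each list with 3 genes or more with a value, the genes with the highest ratio, the lowest ratio and the highest level; per class the 4 highest and 4 lowest regions at or above the class median; the 5 highest and 5 lowest windows of 1 Mb with at least 10 distal regions; and the sequences of the extreme region of each class, chromosome 18 left out. A few genes that these rules name are not reported here. Other genes named as examples were chosen after their values were seen. The regions, lists and motifs were chosen with earlier results of these data known. Alternatives were median-ratio scaling, counts per kb, binarised nuclei, 80% overlap, subsets of nuclei by depth or promoter share, a filter on low regions, a promoter of 500 bp either side, and genes by nearest start site within 100 kb. Counts per kb, the 80% overlap rule and the filter also rescaled the values, so all 3 were run with the scaling unchanged as well, which was chosen after seeing the data.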

Additional observations from a re-analysis of the deposited data

How the results depend on the processing

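No paired analysis was possible because the labels give no replicate numbers and each stage was 1 library, so no replicate could be left out either. The median log2 ratios of promoter, intron and intergenic regions were -0.13, 0.16 and 0.14. They were -0.16, 0.13 and 0.11 with median-ratio scaling, -0.10, 0.011 and 0.026 per kb, which also rescaled the values, -0.47, -0.35 and -0.34 per kb with the scaling unchanged, -0.0079, -0.25 and -0.23 with an overlap of 80%, which also rescaled the counts within its regions, -0.20, -0.45 and -0.42 with that overlap and the scaling unchanged, and -0.094, 0.056 and 0.043 in nuclei of a common depth range (4824.5 to 13832 counts, 10011 nuclei at E14.5 and 2580 at E16.5). Without the deepest nuclei promoters were at -0.12 and introns at 0.14, without the promoter-heavy nuclei introns were at 0.13 and intergenic regions at 0.12, and among regions at or above the median CPM they were at 0.27 and 0.23 rescaled and at 0.26 and 0.22 with the scaling unchanged. The 3 fits with unchanged scaling were chosen after seeing the data. Regions at least 2-fold higher and lower, 3579 and 3918, came to 1003 and 968 per kb (175 and 5389 with unchanged scaling), 101 and 1176 with 80% overlap (29 and 2187 with unchanged scaling), and 2006 and 527 at or above the median CPM (1950 and 540). Genes at least 2-fold higher and lower, 137 and 87, came to 32 and 22 per kb (7 and 354) and 83 and 49 in binarised nuclei. Genes higher numbered 14 with 80% overlap, where 8621 genes were left, and 6 with unchanged scaling, where genes lower numbered 204. Genes lower numbered 137 in the common depth range and 31 at or above the median CPM (34). The cause was not tested, except that the overlap rule and the filter leave fewer regions and that the rescaled and unchanged values differ by the scaling alone. A promoter of 500 bp either side and genes by nearest start site moved neither a class median beyond its spread nor a count by over 1.5 times, but the nearest start site moved 13 of the 19 single-gene ratios with a value beyond their counting interval, such as Draxin from -0.72 to -0.11 and Rtn4r from -0.70 to -0.14, and turned none. Of 382 list medians over the alternatives 85 changed sign, 13 with 80% overlap on either scale, where not every list had a value, 11 per kb and 15 per kb with unchanged scaling. The counts per region, at a lowest of 19 at E14.5 and 11 at E16.5, limit the weakest regions.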

Other observations

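Signalling genes showed small list medians with a few members apart. Wnt genes had a median of -0.13 (17 of 20 genes with a value), from Wnt11 at 32.2 and 19.97 CPM (-0.69) to Wnt5a, a non-canonical ligand of the limb, at 7.22 and 12.4 CPM (0.79), with the receptor gene Ror1 going from 240 to 322 CPM (0.43) over 22 regions. Retinoic acid genes had a median of -0.12 (10 of 15), with Stra6, the retinol transporter, from 55.9 to 44.6 CPM (-0.33), the receptor genes Rara from 104 to 132 CPM (0.34) and Rarg at 206 and 211 CPM (0.036). BMP and TGF-beta genes had a median of -0.060 (18 of 19), with Grem1, a BMP antagonist, from 57.3 to 39.6 CPM (-0.53), the receptor gene Tgfbr2 from 76.0 to 98.2 CPM (0.37) and Tgfbr3 at 348 and 372 CPM (0.096). Notch genes had a median of -0.069 (10 of 13), with the ligand gene Jag2 at -0.53, the receptor gene Notch3 at 0.69 and Hes1, a target of the pathway, at 228 and 230 CPM. Hedgehog genes had a median of 0.048 (9 of 11), with Hhip, a ligand-binding inhibitor, at -0.48, Cdon at 0.23 and Gli3 at 324 and 317 CPM. Glucocorticoid response genes had a median of 0.091 (8 of 9), from Fkbp4 (-0.31) to Zbtb16 (0.36), with Dusp1 at 146 and 171 CPM. Matrix proteases and their inhibitors had a median of -0.00077 (12 of 15), with the protease gene Mmp11 at -0.57, the inhibitor gene Timp2 at 0.83 and Adamts9 at 205 and 203 CPM. No gene of these lists was past 2-fold. Of these medians, those of the retinoic acid and of the BMP and TGF-beta genes changed sign under no alternative. Both lay below 0, where the unchanged scale could hardly turn them. Per kb the Notch (0.025), glucocorticoid response (-0.0071) and matrix protease (0.12) medians changed sign, and on the unchanged scale per kb the hedgehog median (-0.27) did. The Wnt median was 0.026 with the 80% overlap rule after rescaling.

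Of 1622 windows with at least 10 distal regions, none was past 2-fold, the median log2 ratio was 0.19, and the 5th to 95th percentile was -0.24 to 0.53. The highest window held Tmem182 on chromosome 1 (40 to 41 Mb), with 16 distal regions and a summed level of 103 and 204 CPM (0.98). Next were a window with no protein-coding gene on chromosome 15 (24 to 25 Mb, 0.87) and the windows of Cd79b (0.81), Pcbp3 (0.81) and Msra (0.78). The lowest window held Astn2 on chromosome 4 (65 to 66 Mb), with 19 distal regions and a summed level of 138 and 82.6 CPM (-0.74), followed by those of Nbas (-0.68), Egfem1 (-0.68), Hs6st3 (-0.66) and Pdgfc (-0.66). Per kb, the Tmem182 window had 0.56 and the Astn2 window -0.46.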
